A study of Mus musculus with 12 samples.

Results

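The enzymes followed here make and spend the methyl donor of the liver and turn its methionine sulfur into cysteine and taurine. The list named 9 genes (Csad, Cdo1, Bhmt, Mat1a, Gnmt, Cbs, Cth, Ahcy and Nnmt) by symbol. Of these, 7 had a row among the 16116 genes of the table, and all 7 passed the filter on low values that left 10681 genes for testing. Bhmt, which remethylates homocysteine with betaine, and Ahcy, which splits S-adenosylhomocysteine, were not analysed here.

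In the methionine cycle, Mat1a, the liver form of methionine adenosyltransferase, makes S-adenosylmethionine (SAM), and methyltransferases spend it. Gnmt, glycine N-methyltransferase, uses SAM to methylate glycine and is abundant in hepatocytes, while Nnmt, nicotinamide N-methyltransferase, uses it to methylate nicotinamide. Homocysteine left by the cycle enters transsulfuration, in which Cbs (cystathionine beta-synthase) and Cth (cystathionine gamma-lyase) form cysteine. Cysteine dioxygenase (Cdo1) oxidises cysteine to cysteine sulfinate, which cysteine sulfinate decarboxylase (Csad) converts to hypotaurine, the precursor of taurine. Hepatocytes join taurine to bile acids.

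The measurements came from sorted mouse hepatocytes in 2 experiments that activated the transcriptional co-activator YAP and deleted the transcription factor Sox9, in 6 groups of 2 libraries. In the YAP experiment, Sox9 fl/fl mice (Sox9-null) and Sox9 fl/+ mice (Sox9-heterozygous) received AAV2/8-TBG-Cre together with AAV2/8-TBG-YAP S127A-P2A-GFP, which encodes a YAP that escapes inhibition by Hippo kinases, and were set against wild type mice given AAV2/8-TBG-GFP. In the Mst experiment, Sox9 fl/fl and Sox9 fl/+ mice that also carried Mst1 fl/fl and Mst2 fl/fl alleles and the Cre reporter ROSA26-lsl-TdTomato received AAV2/8-TBG-Cre, which removes these Hippo kinases, and were set against mice with the same Mst alleles and reporter, and no Sox9 allele named, given AAV2/8-TBG-GFP. All mice were injected behind the eye at 3 weeks of age, and cells negative for Epcam and CD45 were sorted 3 weeks later in the YAP experiment and 4 weeks later in the Mst experiment. Controls were sorted for GFP, the YAP S127A groups as cells expressing that construct, and the Mst mutants for TdTomato. TBG is a hepatocyte promoter. Neither control received Cre, and no activated group kept both Sox9 alleles, so Cre, the loss of 1 or 2 Sox9 alleles and YAP activation cannot be told apart in any comparison with a control. The 2 groups of an experiment that were set against its control share those control libraries. Whether the 2 libraries of each group are from different mice is not stated in the labels. The p-values then reflect only how far those libraries differ, which may be technical.

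Sox9 itself read 2.28 and 2.62 log2 CPM in the Sox9-null libraries of the YAP experiment, 4.41 and 5.28 in the Sox9-heterozygous ones and 3.90 and 3.59 in the controls. In the Mst experiment it read 1.41 and 1.29 in Sox9-null, 6.47 and 5.999 in Sox9-heterozygous and 4.33 and 3.13 in control libraries. The Sox9-null groups were lower than the Sox9-heterozygous ones by limma in both experiments (log2 difference -2.395 ± 0.38 SE, adjusted p = 0.0132 in the YAP experiment; -4.885 ± 0.38 SE, adjusted p = 6.31e-06 in the Mst experiment). The call in the YAP experiment was lost without each of 3 libraries in turn: the second Sox9-heterozygous one (-1.96) or either Sox9-null one (-2.22 and -2.57). It was also lost with no filter on low values (adjusted p = 0.232) and with no trend in the prior variance (adjusted p = 0.0606). Yap1 was higher in the Sox9-null YAP S127A group than in its control by 1.19 (limma adjusted p = 0.00556), and by 0.91 in the Sox9-heterozygous one, which missed the threshold (adjusted p = 0.0755). Stk4 and Stk3, the gene symbols of Mst1 and Mst2, did not pass in any comparison, and no source used here says where their amplicons lie relative to the deleted exons. Read depth is unknown, since the table holds only log2 CPM, in which each library's reads are put on a shared total. The linear values summed to 938683 to 1011693 in the 8 activated libraries and to 879620 to 920020 in the 4 control libraries, so the scale itself moved with the groups.

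Promoter windows from RefSeq (GRCm38.p6, 250 bases upstream of a listed start) were at hand for 3 of the 6 measured enzymes other than Cdo1, namely Csad, Gnmt and Cbs. Those of Csad and Gnmt are shown because both genes were lower with activation. The Csad window lies upstream of the second of 2 listed starts, at chr15:102189044-102189293. That stretch is inside the annotated gene (chr15:102176999-102204724). The Gnmt window lies at chr17:46729166-46729415. Both are on the minus strand and are written 5′ to 3′ in the direction of the gene. Capitals mark a SOX-type motif, which only the Gnmt window holds.
Csad: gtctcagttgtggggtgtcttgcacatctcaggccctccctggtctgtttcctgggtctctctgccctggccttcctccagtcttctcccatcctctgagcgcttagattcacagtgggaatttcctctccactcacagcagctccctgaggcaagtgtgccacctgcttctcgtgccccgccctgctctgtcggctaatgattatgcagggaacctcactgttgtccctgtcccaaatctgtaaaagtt
Gnmt: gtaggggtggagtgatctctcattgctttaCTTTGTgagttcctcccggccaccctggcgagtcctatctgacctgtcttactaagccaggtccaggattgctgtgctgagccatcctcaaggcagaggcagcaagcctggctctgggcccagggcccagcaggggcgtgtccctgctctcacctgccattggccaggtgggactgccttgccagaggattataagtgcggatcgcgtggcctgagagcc
Each window was searched on both strands for GGAATG (the TEAD motif, bound by partners of YAP), ACAAAG or ACAATG (SOX) and CACGTG (the E-box). The Gnmt window held 1 SOX match, CTTTGT (the reverse strand's ACAAAG), at positions -220 to -215 relative to the start. The Csad window shown held none of the motifs. The window of the other listed Csad start, at chr15:102205053-102205302 and upstream of the annotated gene, held 2 SOX matches. The Cbs window held 1 E-box and no other match. Among 32851 windows of the same length, 25.2% held a SOX motif, 12.6% the TEAD motif and 6.02% the E-box, so these matches are a description of the letters.

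Nnmt, Csad and Gnmt were lower in YAP-activated hepatocytes, while Mat1a, Cdo1, Cbs and Cth were not called in the values as deposited. Over the mean of the 4 activated groups against the mean of the 2 control groups, 3 of the 7 measured enzymes fell and 0 rose, by limma with Benjamini-Hochberg adjustment over all tested genes. Across all genes tested 1.49% fell in that comparison and 12.3% rose. The median difference of the 7 enzymes was -0.41, and all 7 differences were negative, while the median over all genes was 0.125. With library medians equalised the median over all genes moved to -0.05 and the share of higher among called genes from 89.2% to 67.0%, and the same 3 enzymes passed (Nnmt -2.06, Csad -1.32, Gnmt -1.02). This mean takes the 2 controls together, and the table gives them nearly equal means gene by gene, within 0.05 for 98.9% of genes, so the controls cannot be compared with each other.

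**Figure D1:**
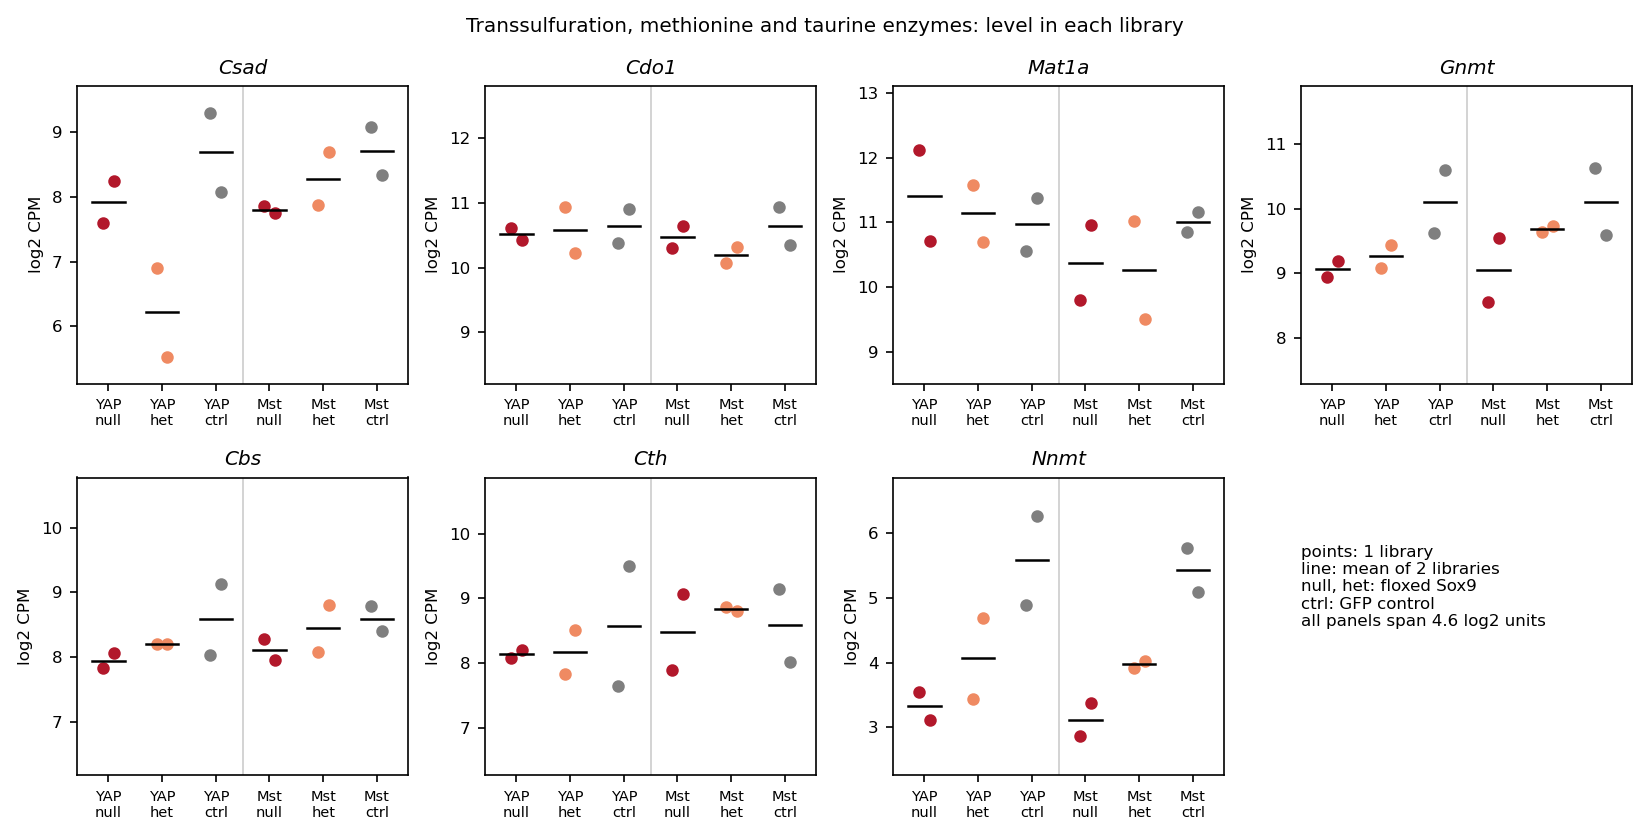
Level of each measured enzyme gene in log2 CPM (vertical axis, every panel spanning the same number of log2 units) in the 2 libraries of each of the 6 groups (points), with the group mean (line). All 8 activated libraries of Nnmt lie between 2.86 and 4.69, under the 4 control libraries at 4.90 to 6.27, while the activated and control libraries of the other 6 genes overlap.

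Nnmt, which methylates nicotinamide at the expense of SAM, was the only one of the 7 whose activated and control libraries did not overlap. It read 3.55 and 3.12 log2 CPM in the Sox9-null YAP S127A libraries and 3.44 and 4.69 in the Sox9-heterozygous ones, against 4.90 and 6.27 in their controls. After deletion of Mst1 and Mst2 it read 2.86 and 3.38 in Sox9-null and 3.92 and 4.03 in Sox9-heterozygous libraries, against 5.77 and 5.09 in their controls. Every activated library was thus under every control library, a pattern that 0.59% of all tested genes showed in this direction. The mean difference was -1.88 ± 0.27 SE (95% interval -2.46 to -1.31, limma adjusted p = 1.72e-04), a 3.69-fold lower level, and it passed with any 1 of the 12 libraries left out.

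By group, Nnmt fell by 2.25 ± 0.44 SE in the Sox9-null YAP S127A group (limma adjusted p = 0.00478), where 0.477% of all genes fell. It fell by 2.31 ± 0.44 SE in the Sox9-null group of the Mst experiment (adjusted p = 0.00358), where 0.88% of all genes fell. In the Sox9-heterozygous groups the differences were -1.52 with YAP S127A (adjusted p = 0.121) and -1.46 after Mst deletion (adjusted p = 0.0812), both short of the threshold. After Mst deletion with 1 Sox9 allele left, 0 of the 7 enzymes and 0.796% of all genes fell. In order of level, the Sox9-null groups were lowest (3.12 ± 0.37 SD in the Mst experiment, 3.33 ± 0.31 in the YAP experiment), the Sox9-heterozygous groups next (3.97 ± 0.08 and 4.06 ± 0.89) and the 2 controls highest (5.43 ± 0.48 and 5.58 ± 0.97), with n = 2 in each and the Mst experiment first in each pair. Neighbours within each of these 3 tiers overlapped in their libraries. Between tiers, the 4 control libraries were apart from the rest, whereas the Sox9-heterozygous YAP S127A libraries overlapped the Sox9-null ones of the same experiment. Without the second control or the second Sox9-null library the Nnmt call in the YAP experiment was lost (-1.56, adjusted p = 0.0846, and -2.03, adjusted p = 0.0771), and without the first control library so was that in the Mst experiment (-1.97, adjusted p = 0.0513). With no filter on low values the call in the YAP experiment was lost too (adjusted p = 0.0512).

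Csad, which makes hypotaurine, had its lowest level in the Sox9-heterozygous YAP S127A group. It read 7.59 and 8.26 log2 CPM in Sox9-null and 6.91 and 5.53 in Sox9-heterozygous YAP S127A libraries, against 9.30 and 8.08 in the controls. After Mst deletion Csad read 7.86 and 7.76 in Sox9-null and 7.87 and 8.70 in Sox9-heterozygous libraries, against 9.09 and 8.34 in the controls. The Sox9-heterozygous YAP S127A group stood apart from the other 5 groups, which formed an unbroken series of overlapping ranges from 7.81 ± 0.07 (SD, n = 2, Sox9-null of the Mst experiment) to 8.72 ± 0.53 (Mst control). The difference of that group from its control was -2.47 ± 0.46 SE (95% interval -3.45 to -1.49, limma adjusted p = 0.00872), and Csad was the 1 enzyme of 7 that fell there, where 0.169% of all genes fell. Without the first control library the difference was -1.86 (adjusted p = 0.185), and without the second Sox9-heterozygous library it was -1.78 (adjusted p = 0.0819). With no filter on low values the adjusted p was 0.128.

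In the other groups the Csad differences from control were -0.77 (Sox9-null with YAP S127A, adjusted p = 0.375), -0.91 (Sox9-null of the Mst experiment, adjusted p = 0.297) and -0.43 (Sox9-heterozygous of the Mst experiment, adjusted p = 0.739), none past the threshold. Over the mean of the 4 activated groups Csad fell by 1.14 ± 0.28 SE (95% interval -1.74 to -0.55, limma adjusted p = 0.0116), with 6 of 8 activated libraries under every control library. That call was lost without the first control library of the YAP experiment (-0.84, adjusted p = 0.109) or of the Mst experiment (-0.96, adjusted p = 0.0716), and with no filter (adjusted p = 0.0757). Csad and Zfp740, on the opposite strand, overlap by 1476 bases in the GENCODE M21 annotation of GRCm38, and no source used here gives the amplicon's position or the use of strand, so the values of Csad are uncertain to that extent.

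Gnmt, which uses SAM to methylate glycine, fell in the mean of the 4 activated groups and passed in no single group. It read 8.94 and 9.19 log2 CPM in Sox9-null and 9.09 and 9.44 in Sox9-heterozygous YAP S127A libraries, against 9.62 and 10.60 in their controls. In the Mst experiment it read 8.56 and 9.54 in Sox9-null and 9.64 and 9.73 in Sox9-heterozygous libraries, against 10.64 and 9.59 in the controls. In the YAP experiment all 4 activated libraries were under both controls, while in the Mst experiment the Sox9-heterozygous libraries were just above the lower control. The mean difference was -0.85 ± 0.25 SE (95% interval -1.38 to -0.31, limma adjusted p = 0.0345), a 1.80-fold lower level.

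The single Gnmt differences from control were -1.045 in Sox9-null and -0.85 in Sox9-heterozygous YAP S127A hepatocytes, and -1.06 in Sox9-null and -0.43 in Sox9-heterozygous hepatocytes of the Mst experiment, with limma adjusted p from 0.150 to 0.701. The call over the mean of 4 held in 6 of the 12 fits that left out 1 library. It was lost without the second control (-0.60, adjusted p = 0.206), the first Sox9-heterozygous (-0.80) or either Sox9-null library of the YAP experiment (-0.81 and -0.88), and without the first control (-0.58, adjusted p = 0.225) or the first Sox9-null library of the Mst experiment (-0.72). No filter (adjusted p = 0.121) and no trend (adjusted p = 0.0531) also ended it. The annotated gene lies within the span of Gm26904 on the opposite strand, with which it shares 3505 bases, so reads of the 2 could be mixed.

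Mat1a, the enzyme that makes SAM in the adult liver, differed most between libraries of a group. It read 12.11 and 10.71 log2 CPM in Sox9-null and 11.58 and 10.70 in Sox9-heterozygous YAP S127A libraries, against 10.56 and 11.38 in the controls, and 9.79 and 10.96 in Sox9-null and 11.02 and 9.51 in Sox9-heterozygous libraries of the Mst experiment, against 10.85 and 11.17 in the controls. All 6 groups overlapped, and the mean difference of -0.19 had a 95% interval from -0.94 to 0.56 (limma adjusted p = 0.788). A change of up to 0.94 on the log2 scale in the lower direction is therefore inside what these libraries allow.

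The transsulfuration pair, Cbs and Cth, was not called in the values as deposited. Cbs read 7.82 and 8.06 log2 CPM in Sox9-null and 8.21 in both Sox9-heterozygous YAP S127A libraries, against 8.04 and 9.13 in the controls, and 8.27 and 7.96 in Sox9-null and 8.08 and 8.81 in Sox9-heterozygous libraries of the Mst experiment, against 8.79 and 8.40 in the controls. Its 4 activated groups all had lower means than the controls, but only 2 of 8 activated libraries were under every control library, and the mean difference was -0.41 (95% interval -0.85 to 0.03, limma adjusted p = 0.223). With the deviations of libraries taken before a rescaling found in the table, a setting added after seeing the data, the same Cbs difference passed (adjusted p = 0.00622). Cth read 8.08 and 8.20 in Sox9-null and 7.82 and 8.50 in Sox9-heterozygous YAP S127A libraries, against 7.64 and 9.50 in the controls. After Mst deletion Cth read 7.89 and 9.07 in Sox9-null and 8.87 and 8.81 in Sox9-heterozygous libraries, against 9.14 and 8.02 in the controls. The control libraries of Cth held both its lowest and its highest value, so 0 of 8 activated libraries were outside them, and the mean difference was -0.17 (95% interval -0.84 to 0.50, limma adjusted p = 0.788). Part of Cth overlaps Gm43314 on the same strand, by 2231 bases.

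Cdo1, which feeds cysteine into the taurine branch upstream of Csad, had the narrowest range of the 7 genes. It read 10.61 and 10.42 log2 CPM in Sox9-null and 10.94 and 10.22 in Sox9-heterozygous YAP S127A libraries, against 10.38 and 10.91 in the controls. In the Mst experiment it read 10.30 and 10.65 in Sox9-null and 10.07 and 10.32 in Sox9-heterozygous libraries, against 10.94 and 10.35 in the controls. The mean difference was -0.20 (95% interval -0.67 to 0.27, limma adjusted p = 0.623), and the Sox9-heterozygous Mst libraries were both just under their controls. Over the 6 comparisons of 2 groups, the 24 differences of Cdo1, Mat1a, Cbs and Cth ran from -0.75 to 0.44, 18 of them negative. Comparisons of the same experiment share libraries, so these signs are not independent of each other. Of the 24, 0 were called, with a smallest limma adjusted p of 0.303, and 0 had a limma p under 0.05 before adjustment.

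**Figure D2:**
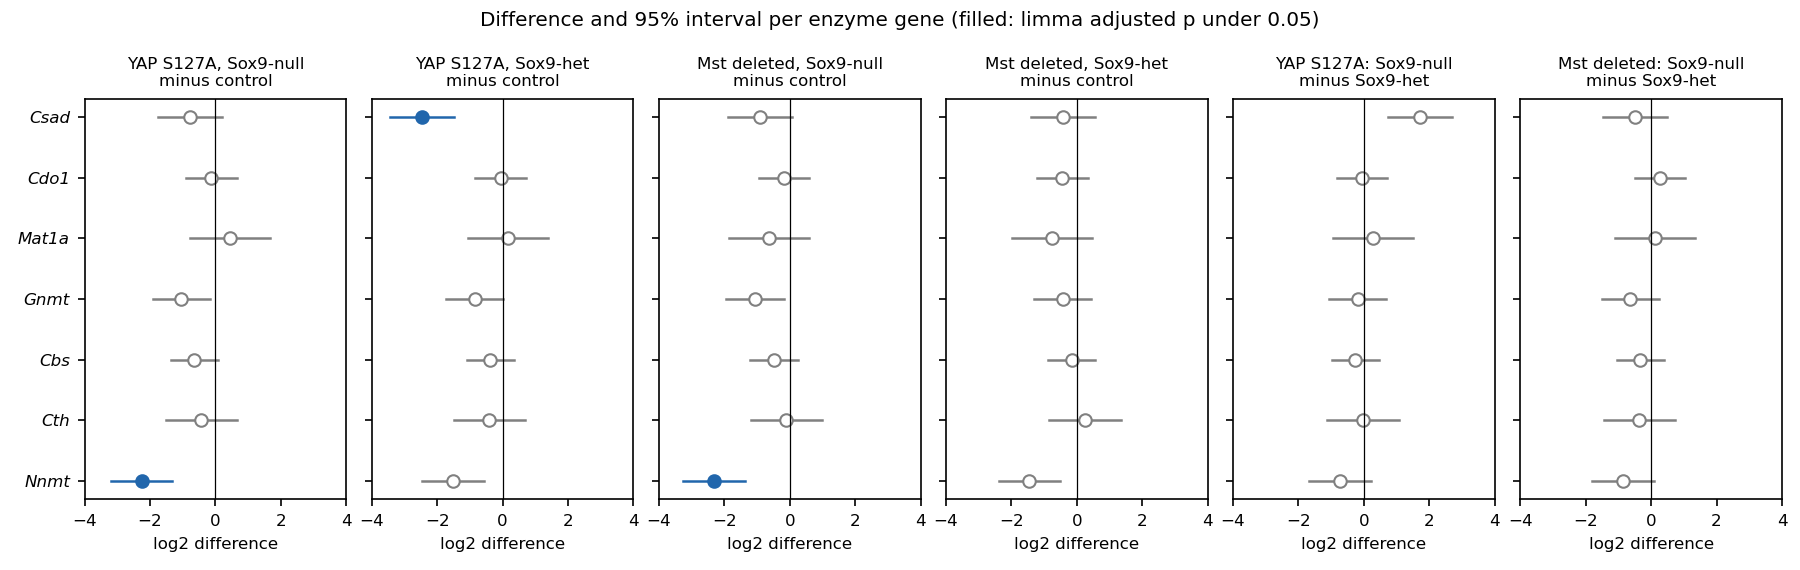
Log2 difference with its 95% interval (horizontal axis) for the 7 enzyme genes (rows) in the 6 comparisons of 2 groups (panels), filled where the limma adjusted p was under 0.05. The filled points are Nnmt in both Sox9-null groups against control (-2.25 and -2.31) and Csad in the Sox9-heterozygous YAP S127A group against control (-2.47).

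Loss of the second Sox9 allele moved none of the 7 enzymes past the threshold, in either experiment or in the mean of both. Among all genes 0.169% were called in either direction for Sox9-null against Sox9-heterozygous in the YAP experiment, 0.0468% in the Mst experiment and 0.131% in the mean. Before adjustment, 1 enzyme in the YAP experiment (Csad), 0 in the Mst experiment and 1 in the mean (Nnmt) had a limma p under 0.05. Nnmt was lower in Sox9-null than in Sox9-heterozygous hepatocytes by 0.73 in the YAP experiment (limma adjusted p = 0.830) and by 0.855 in the Mst experiment (adjusted p = 0.914). Its mean difference was -0.79 (95% interval -1.45 to -0.13, unadjusted p = 0.022, limma adjusted p = 0.442). Gnmt had differences of -0.195 and -0.63, with a mean of -0.41 (adjusted p = 0.715).

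For Csad, the difference between Sox9-null and Sox9-heterozygous hepatocytes had opposite signs in the 2 experiments. After Mst deletion it was -0.48 (95% interval -1.46 to 0.50, limma adjusted p of 1). With YAP S127A it was 1.705 (95% interval 0.73 to 2.68, unadjusted p = 0.00199, limma adjusted p = 0.277), where both Sox9-null libraries were above both Sox9-heterozygous ones. Without the first Sox9-heterozygous YAP S127A library the value was 2.39 and passed (adjusted p = 0.0373). The difference between the experiments, Mst minus YAP, was -2.185 ± 0.65 SE (unadjusted p = 0.0041) and had an adjusted p of 1, in a comparison where 0% of all genes were called (5 genes with the replicate number as a block). The corresponding difference between experiments for Sox9-heterozygous hepatocytes against control was 2.04 ± 0.65 SE for Csad (unadjusted p = 0.00652, limma adjusted p = 0.364), where 0.197% of all genes were called. For the other 6 enzymes the same 2 differences ran from -0.44 (Gnmt) to 0.34 (Cdo1) and from -0.92 (Mat1a) to 0.66 (Cth). In Sox9-null hepatocytes, where 0.272% of genes were called, the difference from control differed between experiments by -0.14 for Csad and by -1.07 (Mat1a) to 0.33 (Cth) for the others, with 0 enzymes called. These differences rest on the assumption that the step equalising the 2 controls shifted all libraries of an experiment by the same amount, and that was not tested.

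Among themselves, Gnmt and Nnmt followed each other most closely over the 12 libraries (Pearson r = 0.873), followed by Gnmt with Cth (0.753), Gnmt with Cbs (0.728) and Cbs with Nnmt (0.688). Csad had r of at most 0.384 with any other enzyme. The lowest pair was Csad with Mat1a (-0.26). These values describe 12 libraries that share their groups and their scale. The 2 genes outside the list with the highest r for Nnmt were Ell2, a transcription elongation factor (0.943), and Pecr, a peroxisomal enoyl-CoA reductase (0.940). Ell2 also fell in the mean of the 4 activated groups (-0.74, limma adjusted p = 0.00293), while Pecr did not pass (-0.37, adjusted p = 0.0862). For Gnmt they were Gucy2c, a guanylate cyclase (0.937), and Gpt, an alanine aminotransferase (0.919). For Csad they were Mtfr1l (0.952) and Sgtb (0.933), for Mat1a Csrp3 (0.951) and Serpinb1a (0.924), and for Cdo1 the cytochrome P450 gene Cyp2c54 (0.909) and Pced1b (0.892). Cbs had Adap2 (0.887) and Wdr91 (0.872), and Cth had the complement gene C8g (0.884) and the selenoprotein gene Sepw1 (0.882). Of these 14 genes, Ell2 was the 1 that passed in the mean of the 4 activated groups.

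The surrounding pathways were taken as 9 lists of 79 genes, of which 71 were tested. In the mean of the 4 activated groups 9 rose (12.7%, against 12.3% of all genes) and 2 fell (2.82%, against 1.49%), and their median difference was 0.02, against 0.125 over all genes. The share that rose was near that of all genes. With library medians equalised 6 of the 71 passed. None of the 8 genes of the methionine cycle list (Mat2a, Mat2b, Ahcyl1, Ahcyl2, Mtr, Mtrr, Bhmt2 and Adk) and none of the 4 genes of choline oxidation passed by limma, with 2 (Mat2a and Mat2b) and 1 (Chdh) under 0.05 before adjustment.

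Among the other SAM-dependent methyltransferases, Hnmt and Inmt rose. Hnmt, which inactivates histamine, ran from 5.77 to 7.03 log2 CPM (median 6.51) in the 8 activated libraries, against 5.30 to 5.67 (median 5.49) in the 4 control libraries. All 8 were above all 4, as for 6.6% of all tested genes, and the difference was 1.03 ± 0.15 SE (limma adjusted p = 1.88e-04), which passed with any 1 library left out and under all 8 other settings. Inmt, an amine N-methyltransferase, rose by 0.81 (limma adjusted p = 0.0431). It passed in only 4 of the 12 fits that left out 1 library and missed the threshold with library medians equalised (0.63, adjusted p = 0.120).

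In the sulfur branch next to Csad and Cdo1, 1 of 9 genes rose and 2 fell, where 12.3% and 1.49% of all genes did. Got1, the cytosolic aspartate aminotransferase, which also takes cysteine sulfinate as a substrate, ran from 5.66 to 7.75 log2 CPM (median 6.59) in activated libraries, against 6.85 to 8.55 (median 7.74) in controls. The groups overlapped, with 5 of 8 activated libraries under every control, and the difference was -1.10 ± 0.25 SE (limma adjusted p = 0.00674, and 0.0509 with no filter). Tst, the rhodanese of sulfide disposal, fell by 0.63 (adjusted p = 0.0172). The Tst call was lost without either YAP control library (-0.65 and -0.60) or the second Mst control library (-0.51). Sqrdl, the sulfide oxidoreductase of mitochondria, rose by 0.81 (adjusted p = 0.0130) and missed the threshold with library medians equalised (0.64, adjusted p = 0.0518), without the first YAP control (0.66) and without the first Mst control (0.75).

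Of the remaining lists, serine synthesis had 1 of 2 tested genes higher, Psat1, phosphoserine aminotransferase, a low transcript that ran from 1.74 to 3.70 log2 CPM (median 2.59) in activated libraries, against 0.89 to 1.96 (median 1.41) in controls. Psat1 rose by 1.21 ± 0.26 SE in the mean (limma adjusted p = 0.00441; 0.87 and adjusted p = 0.0508 with quantile normalization) and by 2.14 in the Sox9-null YAP S127A group (adjusted p = 0.00483). Ggh, which trims folate polyglutamates, was the 1 of 19 folate genes that rose (0.67, limma adjusted p = 0.00669). All 8 of its activated libraries were above all controls, as for 6.6% of all tested genes. The counts per list given here stand against the 12.3% of all genes that rose in this mean. Nampt, which recycles nicotinamide into NAD and so shares its substrate with Nnmt, was the 1 of 8 genes of that list that rose (0.66, adjusted p = 0.0112), and it missed the threshold with library medians equalised (0.49, adjusted p = 0.0556), without the second YAP control (0.57) and without the second Mst control (0.55). Gss, glutathione synthetase (0.53, adjusted p = 0.0473), was the 1 of 6 glutathione genes called, and Mtap, which starts methionine salvage (0.56, adjusted p = 0.0362), the 1 of 8 in its list. Both missed the threshold in most fits that left out 1 library and with library medians equalised (0.36 and 0.39).

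**Figure D3:**
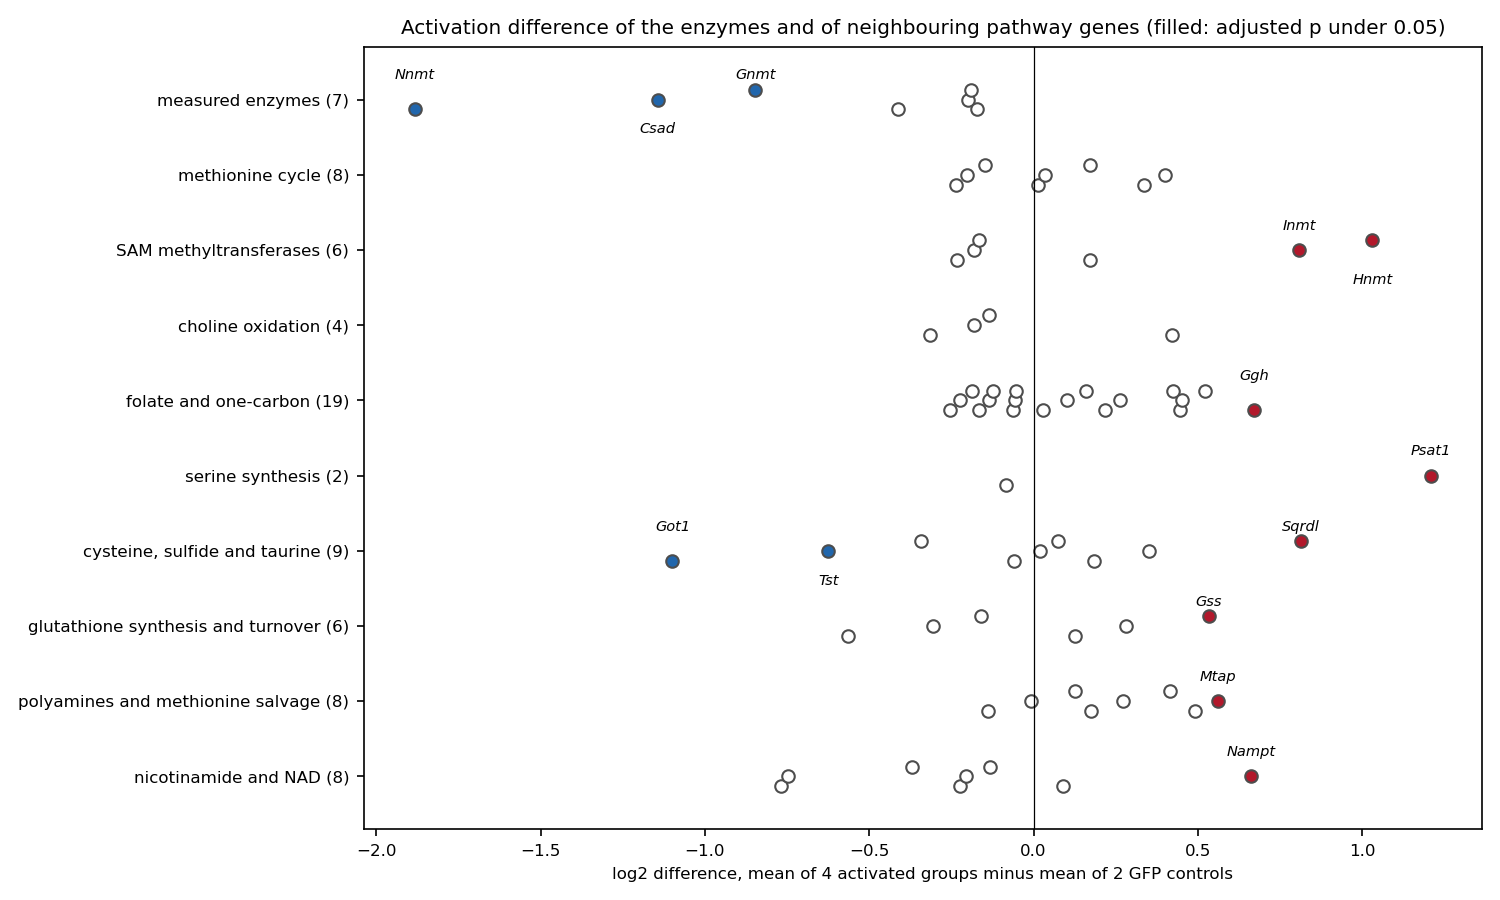
Log2 difference between the mean of the 4 activated groups and the mean of the 2 controls (horizontal axis) for the measured enzymes and the genes of 9 neighbouring lists (rows, with the number plotted in brackets), filled and named where the limma adjusted p was under 0.05. Nnmt at -1.88, Csad at -1.14 and Got1 at -1.10 are the lowest filled points, while the methionine cycle and choline oxidation lists have no filled point.

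By group, the wider lists gave 5 genes higher and 0 lower of 71 in the Sox9-null YAP S127A group, where 6.64% of all genes rose, and 0 in the Sox9-heterozygous one, where 1.57% were called and 9 of the 71 had a limma p under 0.05 before adjustment. The 5 were Psat1, Sqrdl (1.26), Ggh (1.11), Mtap (1.06) and Hnmt (0.87). With library medians equalised the calls of Sqrdl (0.99, adjusted p = 0.110), Mtap (0.80, adjusted p = 0.102) and Hnmt (0.60, adjusted p = 0.198) were lost, as they were with quantile normalization. In the Sox9-null group of the Mst experiment 3 rose, where 6.88% of all genes did, namely Hnmt (1.40), Nampt (1.15) and Gss (1.09). In that group 2 fell, Got1 (-1.91) and Tst (-0.97), where 0.88% of all genes did. The Gss call was lost with library medians equalised (0.85, adjusted p = 0.0894). In the Sox9-heterozygous Mst group Hnmt (1.33) and Nampt (1.29) rose, where 3.45% of all genes did. Chac1, which degrades glutathione, fell there by 1.97, where 0.796% of all genes fell. Each of these calls other than Hnmt in the Sox9-null Mst group was lost without 1 or more single libraries. Sox9-null against Sox9-heterozygous gave 0 of 71 in each experiment and in the mean, with 6 (YAP), 3 (Mst) and 4 (mean) under 0.05 by limma before adjustment.

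Marker genes of hepatocyte zones and of other liver cells differed between activated and control libraries as well. Across all genes tested, 1.49% fell and 12.3% rose in the mean of the 4 activated groups. Of 7 pericentral hepatocyte markers, 6 fell in the mean of the 4 activated groups (median of the 7, -1.72), among them Glul, glutamine synthetase (-2.29), and Oat, ornithine aminotransferase (-3.49). The summed level of the 7 was 583 to 4300 CPM in activated libraries, against 2758 to 7184 CPM in controls. Of 6 periportal markers 1 fell (median -0.33, sums 4745 to 11549 CPM against 7625 to 11045 CPM). Of 6 general hepatocyte markers, Ttr (-1.115) and Tat (-1.03) fell, and their sum was 43417 to 77956 CPM in activated libraries, against 44840 to 64975 CPM in controls. All 5 endothelial markers rose (median 2.42), with a summed level of 64.1 to 201 CPM in activated libraries, against 15.9 to 28.3 CPM in controls. None of 5 Kupffer cell markers passed by limma, with 2 under 0.05 before adjustment (16.2 to 152 CPM against 8.66 to 36.4 CPM). Of 4 tested stellate cell markers 1 rose by limma, with 4 under 0.05 before adjustment. Their median difference was 1.08, with 3 positive and 1 negative. The 5 stellate cell markers summed to 18.3 to 68.1 CPM against 26.4 to 32.2 CPM. Biliary markers summed to 3.47 to 12.4 CPM in activated and 3.33 to 3.62 CPM in control libraries, with Krt7 at a mean log2 CPM of -0.41 and -0.47. Epcam, the 1 biliary marker tested, was called higher by limma in the Sox9-heterozygous YAP S127A group (1.81), where 1.57% of all genes were called. The biliary sums were 6.75 to 12.4 CPM there, 4.82 to 5.68 CPM in the Sox9-null YAP S127A group and 3.47 to 3.84 CPM in the Mst mutants. Leukocyte markers summed to 1.69 to 3.33 CPM in activated and 1.69 to 1.93 CPM in control libraries. The part of these differences in the values of Nnmt, Csad and Gnmt was not tested. In such bulk libraries fewer cells of a type and less RNA per cell cannot be told apart.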

How the data were processed

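Transcripts of sorted mouse hepatocytes were quantified with the Ion AmpliSeq mouse transcriptome panel, 1 amplicon per gene, per the labels' protocols. The authors deposited log2 CPM values for 16116 gene symbols, a scale the labels call RPM. No source used here names the aligner, the genome build or a later adjustment. The table's structure was checked. Gene by gene the means of the 2 control groups differed by a median of 0.00849. In all 10681 kept genes, how far a library lay from its group mean was a whole multiple of a step of that gene (tolerance 2e-06). The factor by which the deviations had been scaled was estimated per gene (median 1.58). It takes the largest step that fits and assumes that the values before scaling lay on a grid of 0.01 log2 units. Such a scaling bears on all p-values. No test on counts was run, since whole reads were not recoverable.

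A gene was kept if 2 or more libraries reached a log2 value of 1. Group means over all 12 libraries were fitted in R 4.3.3 with limma 3.58.1 (eBayes, trended prior), and calls were made at a two-sided Benjamini-Hochberg adjusted p under 0.05 over 10681 genes. A mean of 2 or 4 groups is a contrast of that fit. Group values are given as mean ± SD over 2 libraries. Tests were tried on simulated data. Groups came from the labels. Replicate numbers in the titles were not taken to pair libraries. Alternatives were no filter, a filter at log2 of 3, equalised medians, quantile normalization, a pseudocount of 1, no trend, each experiment alone, a replicate block, each library left out and, added after seeing the data, the deviations before rescaling.

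The genes named are the listed enzymes and the targeted genes, the 2 genes nearest each enzyme by Pearson r, the wider-list genes called in the mean of the 4 activated groups, the mean Sox9 loss or a difference between experiments, and up to 3 called changes per list elsewhere. Marker genes and the overlapping neighbours were named after their values were seen. The enzymes, lists and tests were chosen with earlier results of these data known. Gene overlaps are from GENCODE M21 (GRCm38) and promoter windows from RefSeq (GRCm38.p6). A gene of the wider lists is counted in their totals and not otherwise reported here.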

Additional observations from a re-analysis of the deposited data

How the results depend on the processing

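Across 21 settings, the 57 differences followed for the enzymes, the wider lists and Sox9 gave 1174 values: 989 kept their direction and side of the threshold, 165 lost the call, 16 gained it and 4 changed sign. The 4 changes of sign came from leaving out 1 library: Gnmt in the Sox9-heterozygous Mst group (0.0927 without the first Mst control, lowest -0.95), and in the mean of 4 Mat1a (0.0140 without the second YAP control, lowest -0.40) and Cth (-0.64 to 0.29). The number of enzymes called ranged with 1 library left out from 1 to 1 in the Sox9-heterozygous YAP S127A group, 0 to 1 in the Sox9-null one, 0 to 1 for Sox9-null against Sox9-heterozygous in the YAP experiment, 0 to 1 in the Sox9-null Mst group and 1 to 3 in the mean of 4, and the wider lists gave 5 to 11. In the Sox9-heterozygous YAP S127A group the call passed from Csad to Nnmt without the first control or the second Sox9-heterozygous library (Nnmt -2.20, adjusted p = 0.0472, and -2.15, adjusted p = 0.0347).

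With no filter on low values, which raises the number of genes tested to 16116, 0 enzymes were called in the Sox9-heterozygous and 0 in the Sox9-null YAP S127A group, 1 in the mean of 4 (Nnmt), and 5 wider-list genes (11 before). All genes called fell to 72, 369, 5, 189, 416 and 2 in the 6 comparisons of 2 groups and 985 in the mean of 4, against 168, 760, 18, 454, 829, 5 and 1477. Equalised medians gave 6 wider-list genes, 484 genes in all in the Sox9-null YAP S127A group (449 with quantile normalization), and lowered the share of higher calls to 80.2% (93.3% before) in the Sox9-null YAP S127A and 73.9% (88.7% before) in the Sox9-null Mst group. The 6 Mst libraries alone gave 1 enzyme, Nnmt, among Sox9-heterozygous cells (adjusted p = 0.0479). No trend left Gnmt uncalled in the mean of 4 (adjusted p = 0.0531).

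The median SD within groups was 0.187 before rescaling, against 0.288 as deposited. Use of the deviations before rescaling, which rests on the assumed grid of 0.01, was an alternative chosen after seeing the data. It gave 4 enzymes in the mean of 4 (Cbs, adjusted p = 0.00622, with Csad, Gnmt and Nnmt), 3 in each YAP S127A group (Gnmt and Nnmt with Cbs in the Sox9-null and with Csad in the Sox9-heterozygous one), 3 in the Sox9-null Mst group (Gnmt, Cbs and Nnmt), 2 in the Sox9-heterozygous one (Cdo1 and Nnmt), 1 for Sox9-null against Sox9-heterozygous in the YAP experiment (Csad, adjusted p = 0.0181), 2 for the mean Sox9 loss (Gnmt, adjusted p = 0.0480, and Nnmt, adjusted p = 0.0134), 1 for the difference in activation between Sox9-heterozygous groups (Csad, adjusted p = 0.0280) and 31 wider-list genes. Its calls over all genes numbered 1223, 2938, 466, 2108, 2817 and 181 in the 6 comparisons of 2 groups, so whether an enzyme passed depended on that step.

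The replicate number as a block gave 2 enzymes in the Sox9-heterozygous YAP S127A group and 1 in the Sox9-heterozygous Mst group, Nnmt being the addition in both (adjusted p = 0.0341 and 0.0258), and moved the genes called from 18 to 39 for Sox9-null against Sox9-heterozygous in the YAP experiment, from 14 to 41 for the mean Sox9 loss, from 21 to 35 and from 29 to 50 for the differences in activation between experiments (Sox9-heterozygous and Sox9-null), and from 0 to 5 for the difference in Sox9 loss. Deviations of same-numbered libraries correlated at -0.12, -0.06 and -0.10 in the YAP experiment and at -0.52, -0.31 and -0.64 in the Mst experiment. Gene by gene, the mean of the first libraries and that of the second differed by a median of 0.0051 in the Mst experiment. In the YAP experiment this gap was 0.168. Whether an effect of the replicate number had been removed from the Mst values was not tested. The correlations therefore cannot tell whether the numbers pair the libraries, and the p-values of the main fit take no account of such a removal. Except where stated, the cause of a change was not tested. Depth is unknown, and 2 libraries a group limit the precision of each difference.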

Other observations

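With the assumed grid of 0.01, the rescaling of deviations in the table was larger for most of these enzymes than for most genes. The factor was 1.66 for Csad, larger than that of 54.8% of kept genes, and 2.60 to 3.17 for the other 6, with Cbs at the lower and Gnmt at the upper end. For Gnmt, whose factor exceeded that of 97.6% of genes, the within-group SD was 0.518 with that step and 0.163 without it. For Nnmt the SD was 0.605 with the step and 0.221 without it, and for Csad 0.651 with it and 0.393 without it. Cbs had the same value, 8.21 log2 CPM, in both Sox9-heterozygous YAP S127A libraries.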
